A study of Homo sapiens with 6 samples.

Results

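The pregnancy-specific glycoproteins (PSGs) are secreted members of the carcinoembryonic antigen family, built from an amino-terminal immunoglobulin variable-like domain followed by constant-like domains. They are made chiefly by the syncytiotrophoblast of the human placenta and reach the maternal blood in large amounts. Unlike most of the related CEACAM proteins they carry no membrane anchor, and they are known for binding integrins, heparan sulfate and latent TGF-beta, which PSG1 and PSG9 can activate. Here 7 PSG genes, PSG1, PSG3, PSG4, PSG5, PSG6, PSG8 and PSG9, were described in a kidney cell line, out of 14884 genes that could be named on the arrays. All lie in 1 gene cluster on chromosome 19, and each was read by a single probe set, so the rule of taking the brightest probe set of a gene left no choice among them. The RefSeq gene table holds 10 protein-coding PSG genes. All 10 were named on the arrays, and PSG2, PSG7 and PSG11, which the rule does not list, are given separately. The members were chosen with their own difference between the groups in view, so that difference is described without a test.

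The cells were HK2, an established human line of proximal tubule epithelium, grown in DMEM with fetal bovine serum and infected with pLKO.1 lentivirus. One group carried an shRNA against PGC-1alpha, a coactivator of mitochondrial gene programmes, and the control group carried an shRNA against GFP. Both groups had gone through puromycin selection, and RNA was collected 5 days after infection, 24 hours after puromycin was withdrawn. Each group had 3 Affymetrix arrays, labelled biological replicates 1 to 3, with log2 RMA values whose array medians lay between 5.00 and 5.04. Nothing says that the replicates were separate infections, so a p-value here compares 2 sets of 3 samples whose spread may be technical. PPARGC1A, the targeted gene, had 0 named probe sets, so its level was not analysed here. The labels name 1 shRNA construct against PGC-1alpha, and its effect cannot be told apart from other effects of that construct. Of 16 proximal tubule markers 7 were measured. In the control group PAX8 stood at 11.44, DPP4 at 10.66 and MME at 7.77, whereas the endocytic receptors LRP2 and CUBN, which define the segment, stood at 3.94 and 3.95, below the 20th percentile of named genes, 4.43. In bulk RNA, fewer cells that express a gene and less RNA per cell cannot be told apart.

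The sequences before the starts of 3 members, PSG3, PSG4 and PSG5, were in the RefSeq promoter table of GRCh38.p14. No other member had a sequence there, so these 3 are shown. Each line gives the 250 bases before the annotated start, 5′ to 3′ on the gene's strand, with an 8-base CCCCGCCC or CCCCACCC in capitals. These are boxes of the kind bound by SP1 and by KLF6, a zinc-finger factor first isolated through its binding to a PSG promoter. The windows are chr19:42740482-42740731 for PSG3, chr19:43205639-43205888 for PSG4 and chr19:43186537-43186786 for PSG5, all on the minus strand.
PSG3: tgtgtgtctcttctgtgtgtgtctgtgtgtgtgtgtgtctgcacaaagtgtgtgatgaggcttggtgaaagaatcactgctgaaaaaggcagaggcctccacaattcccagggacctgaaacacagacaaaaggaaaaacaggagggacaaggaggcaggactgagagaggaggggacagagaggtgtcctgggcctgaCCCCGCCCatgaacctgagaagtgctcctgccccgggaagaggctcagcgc
PSG4: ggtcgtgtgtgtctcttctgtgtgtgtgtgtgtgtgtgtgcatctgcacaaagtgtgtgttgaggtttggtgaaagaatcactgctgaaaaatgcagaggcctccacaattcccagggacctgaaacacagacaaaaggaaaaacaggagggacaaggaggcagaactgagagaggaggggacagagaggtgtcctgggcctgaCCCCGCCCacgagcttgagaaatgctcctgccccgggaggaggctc
PSG5: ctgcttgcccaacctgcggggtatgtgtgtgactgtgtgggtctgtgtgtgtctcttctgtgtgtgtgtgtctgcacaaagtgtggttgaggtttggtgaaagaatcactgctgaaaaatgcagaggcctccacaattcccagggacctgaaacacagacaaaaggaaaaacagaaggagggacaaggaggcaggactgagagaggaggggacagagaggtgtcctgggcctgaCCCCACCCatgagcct

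In pairwise alignments without the unpaired ends, PSG3 and PSG4 were identical at 233 of 245 aligned bases (95.1%), PSG3 and PSG5 at 206 of 214 (96.3%) and PSG4 and PSG5 at 203 of 207 (98.1%). The last 2 alignments held 12 and 17 positions with a gap. The box read CCCCGCCC in PSG3 and PSG4, beginning 51 and 46 bases before the start, and CCCCACCC in PSG5, beginning 16 bases before its start. The annotated starts are offset from each other in the aligned sequences. Searched on both strands, CCCCGCCC was present in 21.8% and CCCCACCC in 10.4% of 35116 promoter windows of the same length. A run of TGTGTGTGTG stood in all 3 members and in 0.920% of all windows. TATAAA, the core of a TATA box, and AAGGTCA, the half-site of the estrogen-related receptors with which PGC-1alpha works, were in 0 of the 3 and in 10.7% and 3.44% of all windows. A match of letters is a description only.

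In the comparison of the shRNAs, PSG8, PSG5, PSG3 and PSG6 were lower in the cells with the shRNA against PGC-1alpha, with array values that did not overlap between the groups. PSG4 and PSG1 were lower in the mean with overlapping arrays, and PSG9 was at the same level on all 6 arrays within 0.13. Differences below are shPGC-1alpha minus shGFP on the log2 scale, with the standard error (SE) of the fitted difference. The median over the 7 members was -0.87, beside -0.02 over all named genes. Of the 7 members 4 had lower arrays without overlap and 0 had higher ones, while 21.5% of all named genes were lower and 17.2% higher in this way. The members were chosen on this comparison, so nothing is read from their count. Leaving out each array in turn gave a median between -1.14 and -0.66.

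PSG8 had the largest difference of the family. Its log2 values were 6.71, 6.03 and 5.75 on shGFP replicates 1, 2 and 3 and 4.50, 3.70 and 3.64 on shPGC-1alpha replicates 1, 2 and 3. The lowest control array lay above the highest shPGC-1alpha array, and replicate 1 was the highest of its group in both. The means were 6.16 ± 0.49 (SD, n = 3) and 3.95 ± 0.48, a difference of -2.21 (SE 0.30) or a 4.64-fold lower value. The shPGC-1alpha mean lay below 4.43, the 20th percentile, and may hold background in part, so the fold may be a lower bound.

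PSG5, whose promoter has been used to study factors that drive this family, came next. Its values were 7.84, 7.52 and 6.97 on shGFP replicates 1 to 3 and 6.16, 5.94 and 6.04 on shPGC-1alpha replicates 1 to 3. The control arrays spread over 0.87 and the shPGC-1alpha arrays over 0.22, and the groups stayed apart. The means were 7.44 ± 0.44 (SD, n = 3) and 6.05 ± 0.11, a difference of -1.39 (SE 0.20) or 2.63-fold lower.

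PSG3 lies at the end of the cluster next to PSG8. It read 6.01, 5.79 and 5.52 on the shGFP arrays and 5.03, 4.74 and 4.50 on the shPGC-1alpha arrays, in the order of replicates 1 to 3. All 3 shPGC-1alpha values were below all 3 control values. The means were 5.78 ± 0.24 (SD, n = 3) and 4.76 ± 0.26, a difference of -1.02 (SE 0.16) or 2.02-fold lower.

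PSG6, one of the PSG proteins reported to induce cytokine release from monocytes, had groups that only just cleared each other. Its values were 6.95, 6.64 and 5.98 with shGFP and 5.87, 5.70 and 5.39 with shPGC-1alpha. shGFP replicate 3 was thus close to shPGC-1alpha replicate 1. The means were 6.52 ± 0.49 (SD, n = 3) and 5.65 ± 0.24, a difference of -0.87 (SE 0.24) or 1.83-fold lower.

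PSG4 read 4.83, 4.58 and 4.77 on the shGFP arrays and 4.63, 4.45 and 4.10 on the shPGC-1alpha arrays. The highest shPGC-1alpha array lay above shGFP replicate 2, so the groups overlapped. The means were 4.73 ± 0.13 (SD, n = 3) and 4.39 ± 0.27, the second of them below 4.43. The difference was -0.33 (SE 0.14), and it was -0.19 without shPGC-1alpha replicate 3 and -0.45 without shPGC-1alpha replicate 1.

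PSG1, the best studied PSG protein and an activator of latent TGF-beta, read 5.80, 6.03 and 5.75 with shGFP and 6.04, 5.83 and 5.18 with shPGC-1alpha. The highest and the lowest of its 6 values were both shPGC-1alpha arrays. Its difference of -0.17 (SE 0.21) rested on shPGC-1alpha replicate 3, without which it was 0.08, and it was -0.35 without shPGC-1alpha replicate 1.

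PSG9, which has also been reported in colorectal tumours, read 5.93, 5.96 and 6.02 with shGFP and 5.99, 5.95 and 6.06 with shPGC-1alpha. These arrays overlapped throughout. The difference was 0.03 (SE 0.07), with a range over all 6 arrays of 0.13 against 3.06 for PSG8 and 1.90 for PSG5.

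**Figure D1:**
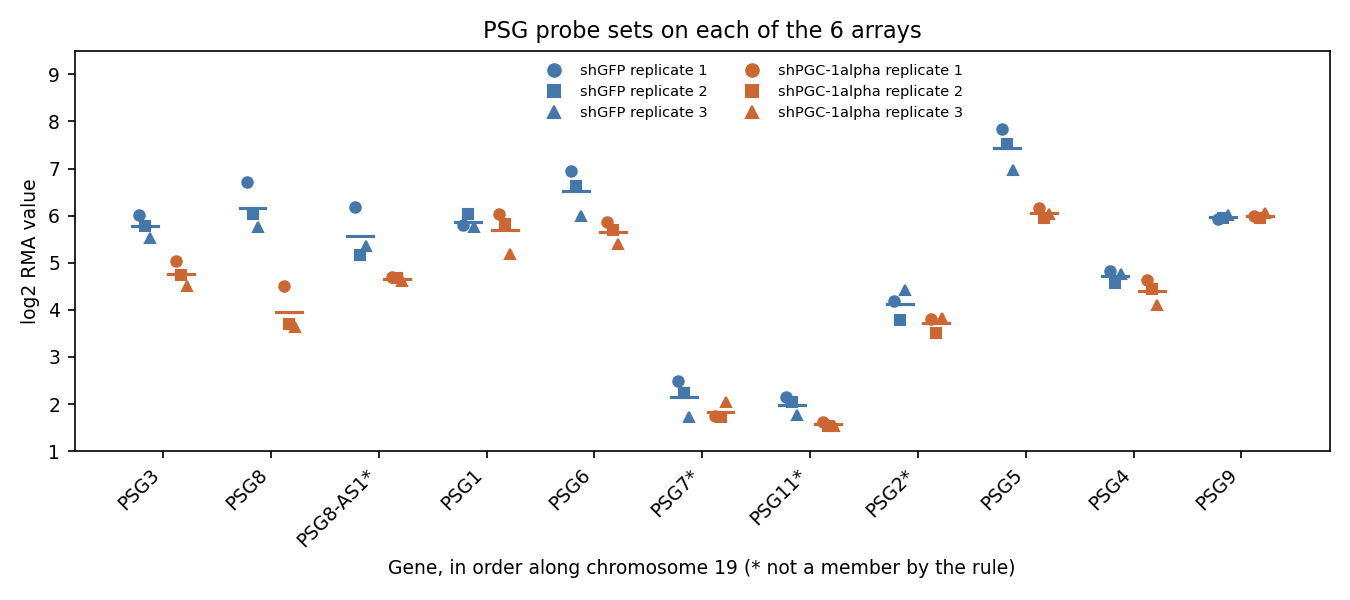
Log2 RMA values of the 10 PSG genes and the antisense RNA PSG8-AS1 on each array, in their order along chromosome 19; circles, squares and triangles are replicates 1, 2 and 3, and bars are group means of 3 arrays. The groups are apart for PSG3, PSG8, PSG6 and PSG5, mixed for PSG1 and PSG4, and level for PSG9, whose values lie within 0.13 of each other.

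The PSG genes outside the rule were dimmer. PSG2 read 4.19, 3.79 and 4.42 with shGFP and 3.81, 3.50 and 3.84 with shPGC-1alpha. PSG11 read 2.15, 2.03 and 1.77 with shGFP against 1.63, 1.54 and 1.54, and PSG7 read 2.48, 2.23 and 1.73 against 1.75, 1.72 and 2.04. The control arrays of PSG11 lay above the others, and those of PSG2 and PSG7 overlapped with them. Both PSG7 and PSG11 sat near the bottom of the array's scale, where a value may hold background only.

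These genes and PSG8-AS1, a long noncoding RNA named as antisense to PSG8, were tested in limma over all named genes. PSG8-AS1 read 6.19, 5.16 and 5.35 with shGFP and 4.69, 4.67 and 4.60 with shPGC-1alpha. Its high control array was replicate 1, which was also the highest control array for 5 of the 7 members. Of the 4 genes 2 fell, where 12.2% of all genes fell. PSG8-AS1 fell by 0.91 (SE 0.24, limma adjusted p 0.035) and PSG11 fell by 0.42 (SE 0.10, limma adjusted p 0.028). PSG2, at -0.42 (SE 0.17, limma adjusted p 0.128), and PSG7, at -0.31 (SE 0.19, limma adjusted p 0.307), did not pass. Both calls were lost without shPGC-1alpha replicate 1, 2 or 3 (0 of 4 called), that of PSG11 also without shGFP replicate 1 or 2 (1 of 4 called without replicate 1) and that of PSG8-AS1 without shGFP replicate 3. PSG2 passed without shGFP replicate 2 and PSG7 without shGFP replicate 3. PSG transcripts are near-identical, so probes may share them, and these values and those of the members may not be separate signals. How far probes share transcripts was not tested.

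The size of the difference varied along the cluster. In order along the chromosome the named genes are PSG3, PSG8, PSG8-AS1, PSG1, PSG6, PSG7, PSG11, PSG2, PSG5, PSG4 and PSG9. From PSG3 to PSG4 all were lower in the mean, and PSG9, at the end, was level at 0.03. PSG1, at -0.17, lies between PSG8, at -2.21, and PSG6, at -0.87, and PSG4, at -0.33, lies beside PSG5, at -1.39. The shPGC-1alpha means of PSG2, PSG4, PSG7, PSG8 and PSG11 were below 4.43, where background may shrink a difference. Whether the cluster changed as 1 block was not tested. PSG4 and PSG5 are the pair whose promoter sequences above matched at 98.1% of aligned bases, with 17 gap positions left out. Their values were 4.73 and 7.44 in the control means, which, coming from different probes, do not order their transcript levels.

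The 20 named genes nearest to the cluster, 10 on each side, moved both ways. Of these, 2 rose and 4 fell in limma, against 9.58% and 12.2% of all genes, with a median of 0.05 and a range of -0.46 to 0.41. CD177, a neutrophil surface glycoprotein, fell by 0.43 (SE 0.07, limma adjusted p 0.0041) and PRG1, a long noncoding RNA gene beside PSG9, fell by 0.46 (SE 0.10, limma adjusted p 0.014). GSK3A, the kinase glycogen synthase kinase 3 alpha, rose by 0.33 (SE 0.06, limma adjusted p 0.0087) and TMEM145 rose by 0.41 (SE 0.08, limma adjusted p 0.0090). The count was 3 of 20, with 1 lower, without shGFP replicate 3. CEACAM8, the neighbour next to PSG3, read 2.63, 3.00 and 2.60 with shGFP and 3.13, 2.84 and 3.12 with shPGC-1alpha, a difference of 0.29 (SE 0.13, limma adjusted p 0.178).

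**Figure D2:**
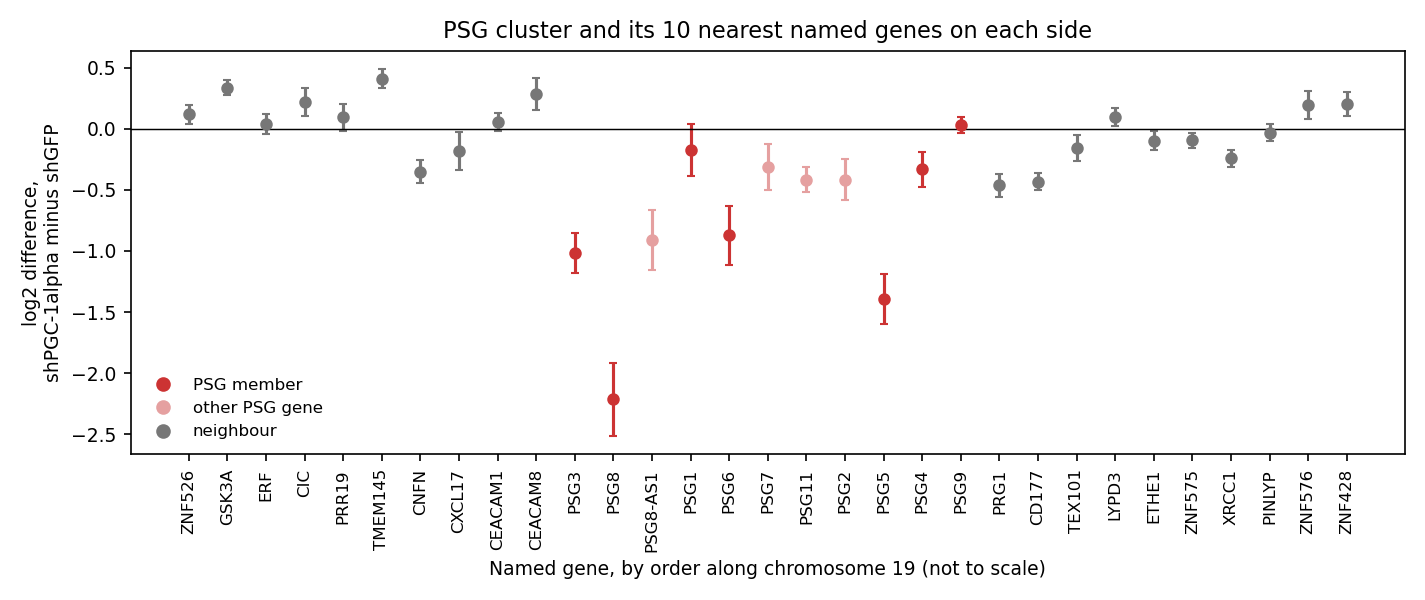
Log2 difference (shPGC-1alpha minus shGFP) of each named gene in the PSG cluster and of 10 named genes on each side, by order along chromosome 19 and not to scale; bars are ± 1 SE of the limma fit on 3 arrays a group. The neighbours lie between -0.46 and 0.41, and PSG8 is the lowest point at -2.21 with PSG9 at 0.03.

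Of the CEACAM genes, relatives of the PSGs that mostly encode cell surface adhesion proteins, 11 were measured. Of these 0 passed in limma, 0 had an unadjusted p under 0.05 and 0 passed under any of the 13 alternatives, while 21.8% of all genes passed in limma. Their median difference was 0.13, and their range was -0.36 for CEACAM20 to 0.31 for CEACAM16. CEACAM1, the epithelial adhesion receptor, stood at 4.95 ± 0.11 (SD, n = 3) with shGFP and 5.00 ± 0.02 with shPGC-1alpha. For CEACAM5, the tumour marker CEA, the values were 3.73 ± 0.24 and 3.68 ± 0.12. Of the 11 genes, 6 had control means below 4.43, so changes in those would be hard to see on these arrays.

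Replicate arrays differed more in the PSG genes than in most genes. The pooled SD within groups was 0.49 for PSG8, 0.39 for PSG6, 0.33 for PSG1, 0.32 for PSG5, 0.25 for PSG3 and 0.21 for PSG4, and 5 of the 7 members exceeded the 90th percentile of all genes, whose median was 0.11. Dimmer genes spread more. Among the 500 genes closest in mean level to each member, the median SD was 0.15 for those near PSG8 and 0.098 for those near PSG5, and the SDs of PSG8 and PSG5 were 3.23 and 3.29 times as large. PSG9 was the exception, with a pooled SD of 0.05 against a median of 0.13 for genes of like level.

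For most members the same array was the highest of its group. shGFP replicate 1 was the highest control array for 5 of the 7 members, and shPGC-1alpha replicate 1 the highest of its group for 6 of 7. shPGC-1alpha replicate 3 was the lowest of its group for 5 of 7. How often each array was highest or lowest over all genes was not counted. Since PSG probes may share transcripts, the members are not separate observations and nothing is read from these counts. Averaged over the members, each centred on its own mean, the control arrays stood at 0.66, 0.44 and 0.19 and the shPGC-1alpha arrays at -0.18, -0.45 and -0.65 for replicates 1, 2 and 3. These averages did not overlap, and shGFP replicate 3 and shPGC-1alpha replicate 1 lay closest to each other.

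**Figure D3:**
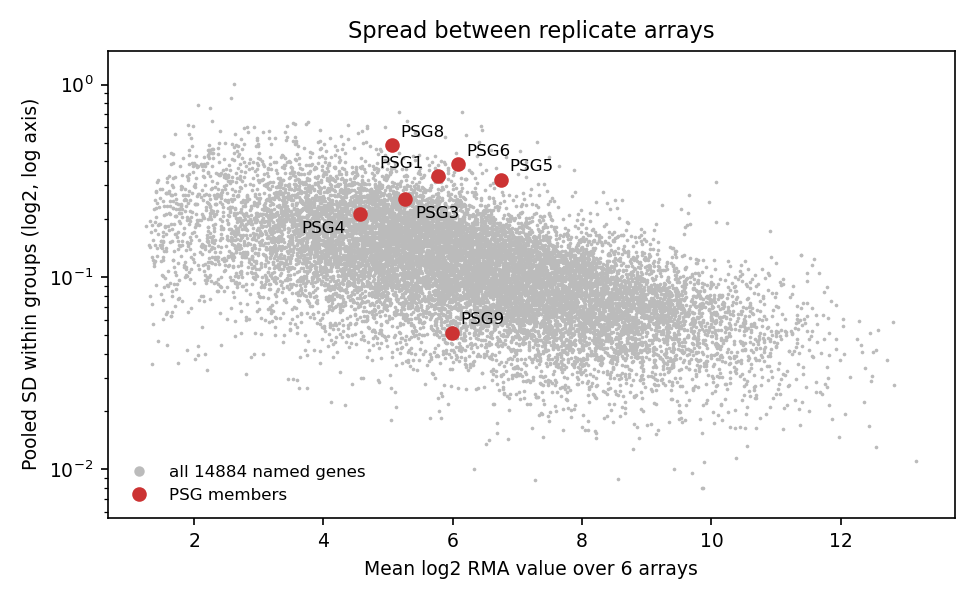
Pooled SD of log2 values within groups (log axis) against the mean log2 value over 6 arrays for all named genes in grey and the 7 PSG members in red. PSG8 (0.49), PSG6 (0.39), PSG1 (0.33) and PSG5 (0.32) lie at the upper edge of the cloud and PSG9 (0.05) in its lower part.

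Outside the family, the genes whose profile came closest to that average were found by the root mean square difference over the 6 arrays, each gene centred on its own mean, among 11960 genes with settled names. They were MTFMT, which formylates the initiator methionyl-tRNA of mitochondria, at 0.058, CNTNAP3, a contactin-associated protein, at 0.075, the zinc-finger gene ZNF117 at 0.076, the mitochondrial carbonyl reductase CBR4 at 0.099 and KLHL14 at 0.108. MTFMT read 7.57, 7.40 and 7.13 with shGFP and 6.61, 6.43 and 6.22 with shPGC-1alpha. Its highest array was shGFP replicate 1 and its lowest shPGC-1alpha replicate 3. MTFMT was picked for its likeness to the PSG average, so sharing these arrays with it is no separate result. The median gene stood at 0.477, and single members ranged from 0.083 for PSG3 to 0.716 for PSG8. CNTNAP3 has near-identical copies, so its value is uncertain.

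**Figure D4:**
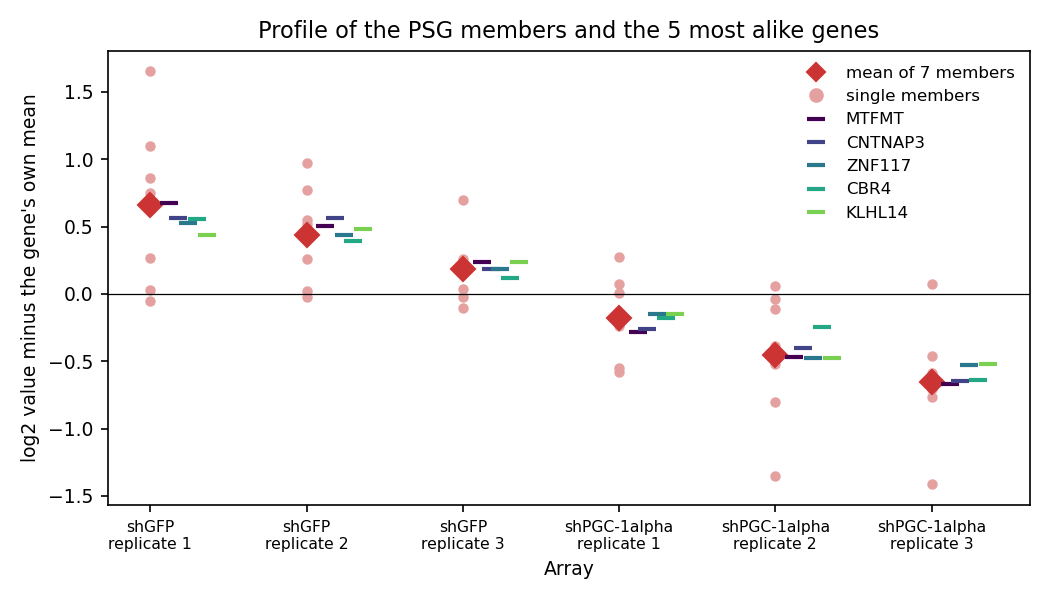
Log2 value minus the gene's own mean on each of the 6 arrays for the 7 PSG members (pale points), their average (red diamonds) and the 5 genes most like the average (dashes). The average runs from 0.66 on shGFP replicate 1 to -0.65 on shPGC-1alpha replicate 3, and MTFMT stays closest to it.

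Among genes known for driving PSG promoters, 4 of 12 listed were measured. Of these 0 rose and 1 fell, where 9.58% of all genes rose and 12.2% fell, so nothing is read from this count. SP1, which binds GC and CACCC boxes, read from 8.92 ± 0.05 (SD, n = 3) with shGFP to 8.60 ± 0.08 with shPGC-1alpha and fell by 0.31 (SE 0.07, limma adjusted p 0.018). KLF6 stood at 10.67 ± 0.04 and 10.56 ± 0.02, a difference of -0.12 (SE 0.06, limma adjusted p 0.237), and SP3 and KLF4 differed by -0.05 and 0.05. With 1 array left out, be it shGFP replicate 2, shGFP replicate 3, shPGC-1alpha replicate 1 or shPGC-1alpha replicate 3, the call of SP1 was lost and 0 of the 4 genes passed.

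Of 18 listed partners that PSG proteins bind or that carry the heparan sulfate they bind, 11 were measured. Of these 2 rose and 1 fell, where 9.58% of all genes rose and 12.2% fell, with a median of 0.04. The heparan sulfate proteoglycans GPC6 and SDC3 rose by 0.41 (SE 0.07, limma adjusted p 0.0061) and 0.33 (SE 0.08, limma adjusted p 0.026), and SDC1 fell by 0.30 (SE 0.07, limma adjusted p 0.019). CD9, a tetraspanin identified as the receptor of a mouse PSG, stood at 4.45 ± 0.20 (SD, n = 3) with shGFP and 4.38 ± 0.06 with shPGC-1alpha. Without shGFP replicate 2 or 3 only 1 of the 11 passed, GPC6, since the calls of SDC1 and SDC3 were lost.

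The TGF-beta pathway, on which secreted PSG1 and PSG9 act through its latent ligand, moved both ways. Of 24 measured genes of 40 listed, 6 rose (9.58% of all genes rose) and 6 fell (12.2% of all genes fell), with a median of -0.04. LTBP3, which holds latent TGF-beta in the matrix, fell by 0.87 (SE 0.07, limma adjusted p 0.00023), from 7.54 ± 0.05 (SD, n = 3) to 6.67 ± 0.07. SMAD4, the shared partner of the receptor-activated SMADs, fell by 0.52 (SE 0.07, limma adjusted p 0.0018). SMURF2, a ubiquitin ligase that restrains the pathway, and the inhibitory SMAD7 rose by 0.51 (SE 0.07, limma adjusted p 0.0018) and 0.45 (SE 0.07, limma adjusted p 0.0041). Named after their values were seen, the corepressors SKI and SKIL rose by 0.36 and 0.34 and LTBP2 by 0.37, and the receptor-activated SMAD5 and SMAD2 fell by 0.38 and 0.32. The count was 7 of 24 without shGFP replicate 2, and each remaining call, of SMAD1, SMAD6 and TGIF1, was lost in at least 5 of the 6 fits with 1 array left out.

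Genes of the placental trophoblast, the cells that normally make PSGs, moved both ways. Of 50 listed genes 25 were measured, and 5 rose (9.58% of all genes rose) and 3 fell (12.2% of all genes fell), with a median of 0.09. TFAP2C, a transcription factor of trophoblast, rose by 1.88 (SE 0.15, limma adjusted p 0.00027), from 5.19 ± 0.30 (SD, n = 3) to 7.06 ± 0.13. ADAM12, a secreted metalloprotease, rose by 1.24 (SE 0.07, limma adjusted p 5.9e-05) and the protease inhibitor TFPI2 by 0.62 (SE 0.06, limma adjusted p 0.00067). PEG10, an imprinted gene needed for placental growth, fell by 0.86 (SE 0.07, limma adjusted p 0.00034). The syncytiotrophoblast factor GCM1 stood at 4.20 ± 0.10 with shGFP and 4.32 ± 0.23 with shPGC-1alpha, below the 20th percentile of named genes. The mean over the 25 genes ran from 5.91 to 6.10 on control arrays and from 6.19 to 6.20 on shPGC-1alpha arrays, and its part in the PSG values was not tested.

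**Figure D5:**
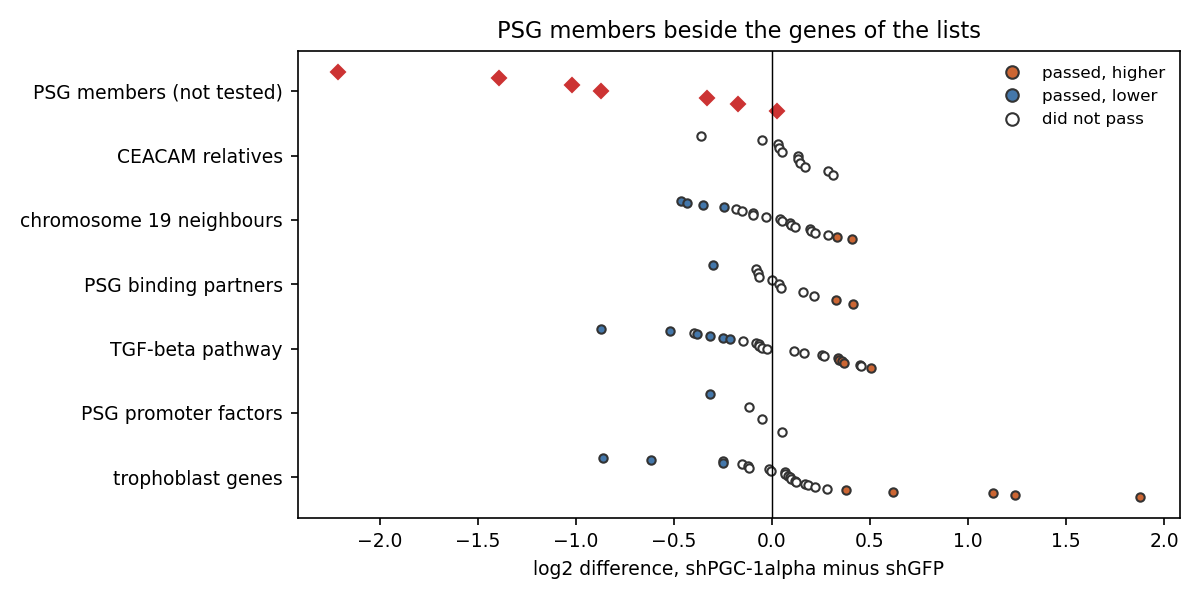
Log2 difference (shPGC-1alpha minus shGFP) of the 7 PSG members, which were not tested, and of each measured gene in 6 lists; filled circles passed an adjusted p of 0.05 in limma (orange higher, blue lower) and open circles did not. PSG8, PSG5 and PSG3 lie below -1, and the lowest values of the lists are LTBP3 at -0.87 and PEG10 at -0.86. The members were chosen on this comparison, so nothing is read from their place beside the lists.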

How the data were processed

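Per the labels' protocols, total RNA of 6 cultures was made into biotinylated cRNA. The authors deposited log2 values for 53617 probe sets, made with RMA in Affymetrix Expression Console per the submitters' processing notes; no version is given in the sources used here. RMA gives no counts or detection calls, so the number of arrays limits the precision. The platform table named 16098 probe sets (1 symbol each, 0 with several, 37519 with none), all matched to RefSeq GRCh38.p14, giving 14884 genes; the probe set with the highest mean stood for a gene. Groups came from the sample titles. limma 3.58.1 in R 4.3.3 (lmFit, eBayes, no block, no filter) was fitted over all genes, with Benjamini-Hochberg adjustment and a threshold of 0.05; on simulated data with the real means and spread with 200 genes changed it recovered 40.3%, 89.6% and 98.5% of those changed by 0.5, 1 and 2 log2 units, with 1.30% false calls; with none changed it made 0 calls over 14884 genes. The simulated noise was independent between genes, and fewer genes were changed than passed in the real data. These rates may therefore not hold where genes share deviations of an array. Promoters were aligned with Biopython 1.88. Named are all members, up to 4 genes per list with the smallest p among those that passed (otherwise 2), any of the CEACAM and PSG relatives, and the 5 genes most like the members' average. CD9, GCM1, KLF4, KLF6, SP3, marker genes and genes so described were named after their values were seen. The members and lists were chosen with earlier results of these data known. The alternatives left out each array, or changed the block, the filter, the probe sets, the variance model or the scaling.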

Additional observations from a re-analysis of the deposited data

How the results depend on the processing

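Of the members' values under 13 alternatives, 2 changed sign, both without shPGC-1alpha replicate 3. PSG1 ranged from -0.35 to 0.076 and PSG9 from -0.0015 to 0.054 with 1 array left out. The other 89 values kept their sign and stayed within the spread between replicates. This says little about stability, because most alternatives could not give another outcome. Changing the block, filter, probe sets or variance model left each member's difference as it was. Leaving out 1 of 3 arrays cannot shift a group mean by more than that group's SD. The median over the members was -1.14 to -0.66 with 1 array left out. Over all genes 3243 passed (1426 higher, 1817 lower), 2328 to 2578 with 1 array left out and 1737 when all probe sets were fitted. Centring each array on its median turned the split to 1867 higher and 1440 lower, with a shift of the median gene from -0.02 to 0.04. With 1 array left out, 0 to 2 PSG relatives, 1 to 3 binding partners, 0 to 1 promoter factors, 7 to 11 TGF-beta genes and 3 to 6 neighbours passed. With all probe sets fitted these counts were 0, 1, 0, 6 and 3. With a variance trend and robust fit 1 relative, 5 binding partners and 2 promoter factors passed, and without genes below the 20th percentile 1 relative passed, since PSG11 was left out of that fit. The cause of the other changes was not tested. With the replicate number as a block 2773 genes passed, and 3 PSG relatives against 2 without it. Across genes, deviations of same-numbered arrays from their group means correlated at 0.12, 0.09 and 0.02 for replicates 1, 2 and 3. For replicates 1 and 2 no other pairing correlated higher, but shGFP replicate 3 correlated best with shPGC-1alpha replicate 2, at 0.06. The members' average also fell from replicate 1 to replicate 3 in both groups. Whether same-numbered samples were paired is not settled by these values, and the main fit used no block. The shPGC-1alpha means of PSG8 and PSG4 and both means of PSG2, PSG7 and PSG11 lay below 4.43, the 20th percentile of named genes, where signal over background limits what a difference can show.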

Other observations

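Some markers of epithelial and mesenchymal cells also passed the test. Of 6 measured epithelial genes 3 fell and 0 rose in limma, where 12.2% of all genes fell and 9.58% rose. KRT19, a keratin of simple epithelia, fell by 1.42 (SE 0.10, limma adjusted p 0.00016), from 9.32 ± 0.14 (SD, n = 3) to 7.90 ± 0.12, the adhesion molecule EPCAM fell by 0.73 (SE 0.07) and KRT18 by 0.31 (SE 0.06). Of 3 measured fibroblast genes, the matrix proteoglycans LUM and DCN rose by 0.76 (SE 0.07) and 0.83 (SE 0.08), while THY1 stood at 5.97 ± 0.17 and 5.85 ± 0.20. The mean over the epithelial genes was 7.47 to 7.59 on control arrays and 6.92 to 7.09 on shPGC-1alpha arrays, without overlap. Means over the PSG relatives and the CEACAM, promoter factor, trophoblast, fibroblast and leukocyte genes did not overlap either, so nothing is read from this. Those over the binding partners and the TGF-beta, proximal tubule, endothelial and neighbour genes overlapped. Of 3 endothelial genes 0 passed in limma, with 0 at an unadjusted p under 0.05, and of 2 leukocyte genes CD68, which many cell types express in lysosomes, rose by 0.34 (SE 0.06). Their part in the PSG values was not tested.

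In the proximal tubule list 7 genes were measured, and 1 rose and 2 fell in limma, where 9.58% of all genes rose and 12.2% fell. The brush border peptidases MME and DPP4 fell by 0.61 (SE 0.07) and 0.27 (SE 0.07), while the transcription factor PAX8 rose by 0.38 (SE 0.07). ANPEP, also a brush border peptidase, was higher by 0.16 (SE 0.08, limma adjusted p 0.208) and did not pass. LRP2, CUBN and AQP1 did not pass either. The call of DPP4 was lost with the replicate block and without any of shGFP replicates 1, 2 and 3 or shPGC-1alpha replicates 2 and 3.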
